A study of Homo sapiens with 8 samples.

Results

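The genes described here are 10 components of myostatin, activin and TGF-beta signalling: the ligands MSTN, TGFB1 and TGFB2, the extracellular binding proteins FST and FSTL1, the receptors ACVR2A, ACVR2B, TGFBR2 and TGFBR1, and the inhibitor SMAD7. They were chosen by symbol from the 60234 genes of the deposited table, and each of the 10 symbols stood on 1 Ensembl identifier. Expression was measured in Rh41, an established human line of alveolar rhabdomyosarcoma that carries the PAX3-FOXO1 fusion, with 4 control libraries (CTR) and 4 libraries labelled siG9a, in which G9a, the histone H3 lysine 9 methyltransferase encoded by EHMT2, was knocked down. The series title writes shG9a and the samples siG9a, and the labels give neither the knockdown sequence, the control sequence nor the time after knockdown. All 8 libraries are of the same line, and the labels call the replicates biological without saying which cultures they came from. P-values therefore measure the spread between these libraries. The labels state no pairing, and pairs below are libraries with the same replicate number.

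Myostatin and activins are secreted ligands that bind the type II receptors ACVR2A and ACVR2B, which then activate a type I receptor such as TGFBR1 or ACVR1B and, through it, SMAD2 and SMAD3. TGF-beta ligands use TGFBR2 and TGFBR1 in the same way, follistatin (FST) captures myostatin and activins outside the cell, and SMAD7 is an inhibitory SMAD that acts on the type I receptors. In skeletal muscle, myostatin is known as a restraint on growth, and its gene is expressed mainly in the muscle lineage.

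The start region of MSTN is shown because MSTN was the only one of the 10 genes called in any fit of all 8 libraries by limma, and those of ACVR2A and ACVR2B because the changes of this receptor pair had opposite signs. Each is the RefSeq window from 250 bases before to 50 bases after the gene's start in GRCh38.p14. MSTN lies at chr2:190062680-190062979 on the minus strand, ACVR2A at chr2:147844779-147845078 and ACVR2B at chr3:38453640-38453939, both on the plus strand. Capitals mark E-boxes, the letters CANNTG, which read the same on both strands and are the kind of site bound by MYOD1 and related factors.
MSTN: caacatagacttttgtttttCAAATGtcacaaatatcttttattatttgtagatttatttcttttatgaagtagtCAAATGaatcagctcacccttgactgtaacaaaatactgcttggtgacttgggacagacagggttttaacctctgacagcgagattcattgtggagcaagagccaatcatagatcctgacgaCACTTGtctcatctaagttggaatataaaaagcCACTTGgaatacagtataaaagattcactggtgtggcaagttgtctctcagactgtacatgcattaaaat
ACVR2A: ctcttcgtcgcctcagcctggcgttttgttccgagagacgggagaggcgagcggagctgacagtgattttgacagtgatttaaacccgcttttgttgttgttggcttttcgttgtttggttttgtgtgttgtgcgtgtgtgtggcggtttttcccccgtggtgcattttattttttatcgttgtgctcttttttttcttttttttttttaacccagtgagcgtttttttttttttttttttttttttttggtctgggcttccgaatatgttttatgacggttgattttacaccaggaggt
ACVR2B: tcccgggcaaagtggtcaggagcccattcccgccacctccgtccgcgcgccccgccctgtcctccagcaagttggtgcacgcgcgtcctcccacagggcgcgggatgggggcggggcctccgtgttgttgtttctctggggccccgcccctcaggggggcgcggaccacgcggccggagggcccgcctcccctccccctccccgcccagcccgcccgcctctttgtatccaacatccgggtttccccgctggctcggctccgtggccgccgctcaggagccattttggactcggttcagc
The MSTN window held 4 E-boxes, starting 230, 175, 53 and 20 bases before the gene's start, and those of ACVR2A and ACVR2B held 0. At least 1 E-box was found in 68.7% of 35116 promoter windows of this length, and at least 4 in 5.58%. The base composition also differed, with a GC content of 36.0% for MSTN, 41.3% for ACVR2A and 73.0% for ACVR2B, against a median of 58.7% over all windows. A stricter E-box core, with guanine then cytosine as its middle letters, was also counted. The MSTN window held 0 of these cores, and 17.9% of all windows held at least 1. These matches are descriptions of the letters, and no binding, by MYOD1 or any other factor, was measured.

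EHMT2 ran from 57.6 to 88.3 CPM in CTR and from 19.6 to 58.5 CPM in siG9a. The groups overlapped. EHMT2 was lower in siG9a in 4 of 4 pairs, least so in pair 4, where siG9a held 66.3% of CTR. The log2 change was −1.1. With the group as the only term, limma did not call EHMT2 (adjusted p = 0.191). With the replicate number as a block, limma called it lower (adjusted p = 0.000472). The symbol EHMT2 stood on 7 Ensembl identifiers. CPM are read counts scaled to the total of reads assigned to genes in a library. EHMT2-AS1 overlaps the 3′ end of EHMT2 on the opposite strand. The libraries held between 1458825 and 1938665 reads, so 1 read was worth 0.516 to 0.685 CPM, and 3 reads, the floor used here, 1.55 to 2.06 CPM. The table held 7 of the listed markers of alveolar rhabdomyosarcoma and skeletal muscle: MYOD1, MYOG, DES, CDH15, CHRNA1, FGFR4 and TFAP2B. They are called muscle markers below and were read in every library. MYOG lay under the floor in siG9a replicates 2 and 3, at 1.21 and 1.14 CPM. The libraries of replicate 3 stood apart in both groups. The summed level of the 7 muscle markers was 295 CPM in CTR replicate 3 and 243 CPM in siG9a replicate 3, against 1688 to 1882 CPM in the other CTR libraries and 925 to 1352 CPM in the other siG9a libraries. The summed level of 6 neural markers was 9665 and 8965 CPM in the replicate 3 libraries, against 191 to 2058 CPM in the other CTR and 219.8 to 2960 CPM in the other siG9a libraries. Most of it came from NEFM and NEFL. SOX2 was also highest in replicate 3, at 59.0 CPM in CTR and 34.8 CPM in siG9a, while STMN2, ELAVL4 and TUBB3, defining markers of neurons, stayed at or under 7.29 CPM. Fibroblast markers summed to 118 to 409 CPM in CTR and 52.0 to 323 CPM in siG9a, with COL3A1 and COL1A1 as the largest. POSTN was at 0, LUM, DCN and THY1 at or under 1.21 CPM, and FAP, PDGFRB and COL1A2 at or under 9.72 CPM. Epithelial markers summed to 10.3 to 76.2 CPM in CTR and 24.1 to 43.96 CPM in siG9a. Endothelial and leukocyte markers summed to at most 2.08 and 6.85 CPM, with CDH5 and KDR at 0. In bulk libraries, fewer cells of a type and less RNA per cell cannot be told apart. Changes without both of these libraries are therefore given too for the 10 genes, except TGFB2 and SMAD7, which rested on few reads.

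In CTR the mean levels were, in order, MSTN 134 ± 129 CPM, FSTL1 75.4 ± 25.9, ACVR2B 62.4 ± 17.3, TGFBR1 47.2 ± 17.3 and ACVR2A 38.2 ± 18.7 CPM (SD, n = 4). Then came TGFB1 with 9.54 ± 6.08, TGFBR2 with 6.06 ± 2.21, FST with 5.02 ± 3.42, SMAD7 with 1.86 ± 1.28 and TGFB2 with 1.69 ± 1.05 CPM (SD, n = 4). The libraries were made from transcript ends, so these levels do not depend on gene length. Only ACVR2A and TGFB1 were neighbours in this order that lay further apart than their 2 SDs together, in CTR and again in siG9a. In siG9a the order began with ACVR2B, FSTL1 and MSTN, at 77.1 ± 17.1, 61.7 ± 32.4 and 45.8 ± 36.3 CPM (SD, n = 4).

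**Figure D1:**
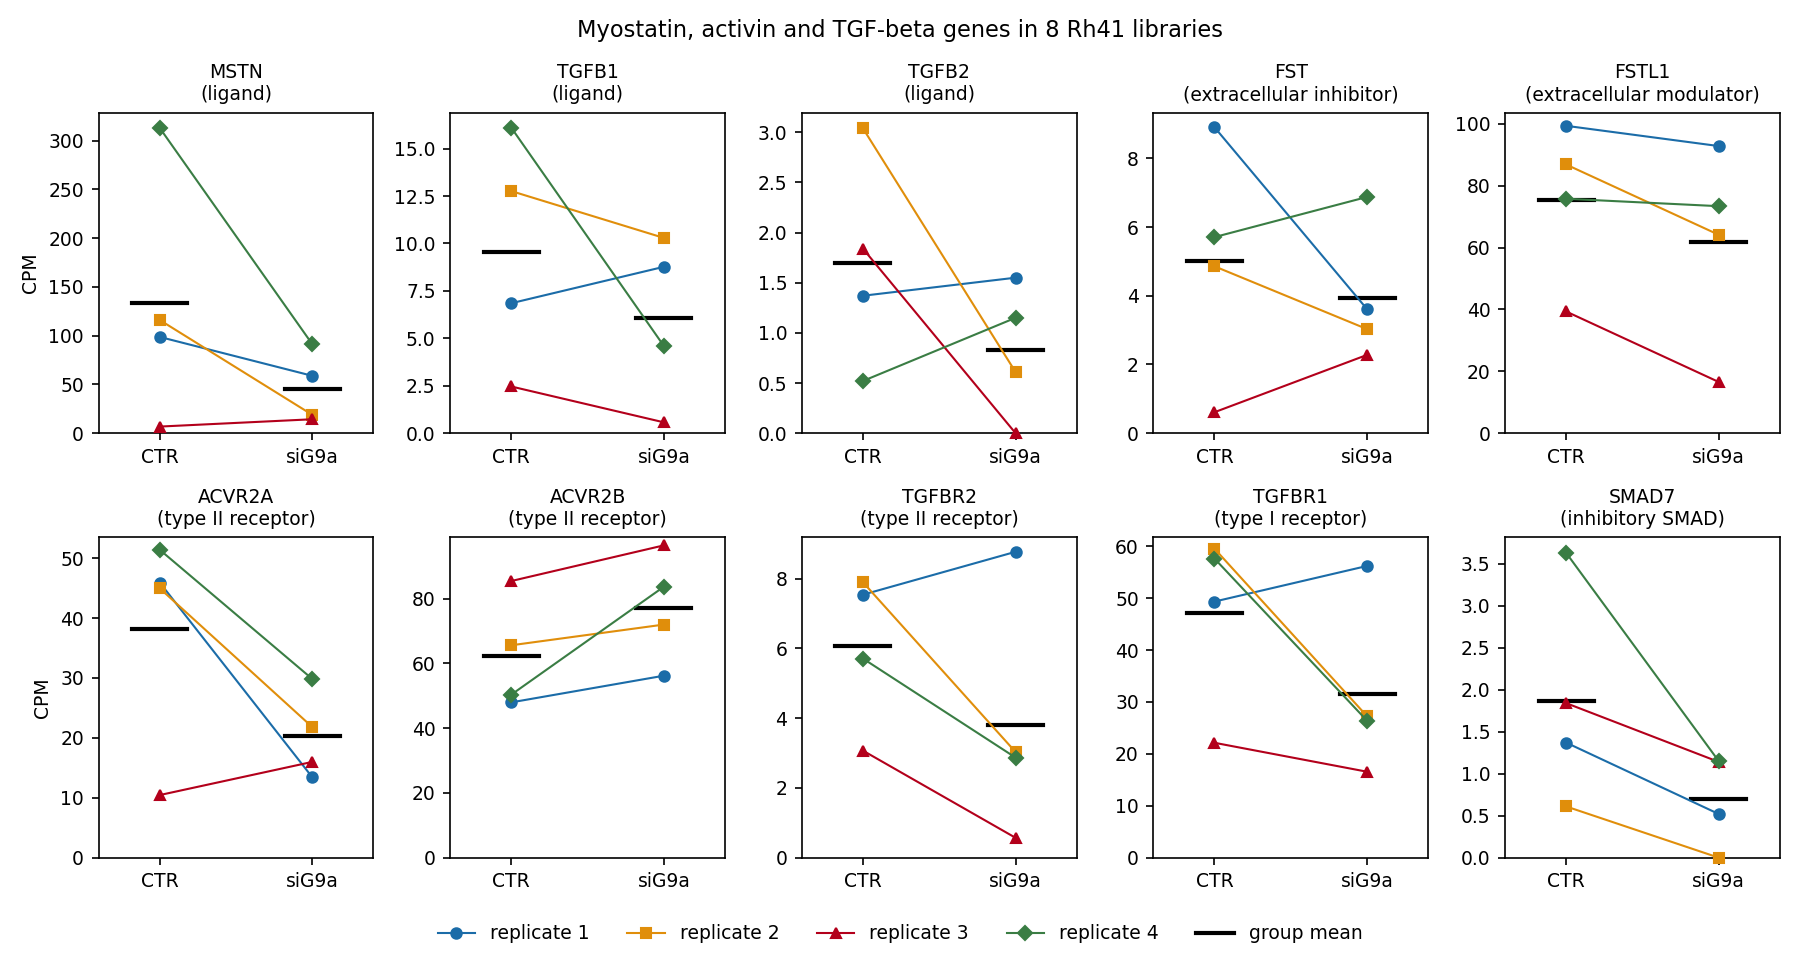
Expression of the 10 genes in CPM (vertical axes, each from 0 and with its own scale) in the 4 CTR and 4 siG9a libraries. Points are libraries, thin lines join libraries with the same replicate number, and black bars are group means. MSTN was lower in siG9a in 3 of 4 pairs and ACVR2B was higher in 4 of 4, while replicate 3 (red triangles) was the lowest library of both groups for 6 of the 10 genes.

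Of the 10 genes, all of which had a mean of at least 1 CPM and were tested, 0 were called in the comparison of siG9a with CTR by limma with the group as the only term, where 0.0% of the 15092 genes tested were called. None of the 10 had an unadjusted p under 0.05 in that fit, and their adjusted p-values ran from 0.555 to 0.966. Over all genes 1880 had an unadjusted p under 0.05, and edgeR on the recovered reads also called 0 genes, while DESeq2 called 1.93% of genes and 0 of the 10. None of the 10 was called either where array weights (2.89% of all genes called), no filter on low values (0.0695%) or the omission of CTR replicate 3 (1.99%) or siG9a replicate 4 (0.0133%) gave calls elsewhere. With the replicate number as a block (the blocked fit), limma called 1 of the 10, lower in siG9a, where 11.4% of all genes were called and 6.52% were called lower. The share of members called is thus close to that of all genes. The log2 change was below 0 for 9 of the 10 genes, against 48.9% of all genes tested, and their median log2 change was −0.64 against 0.01 over all genes. None of the 10 had 4 siG9a values that did not overlap the 4 CTR values, as 7.32% of all genes had.

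**Figure D2:**
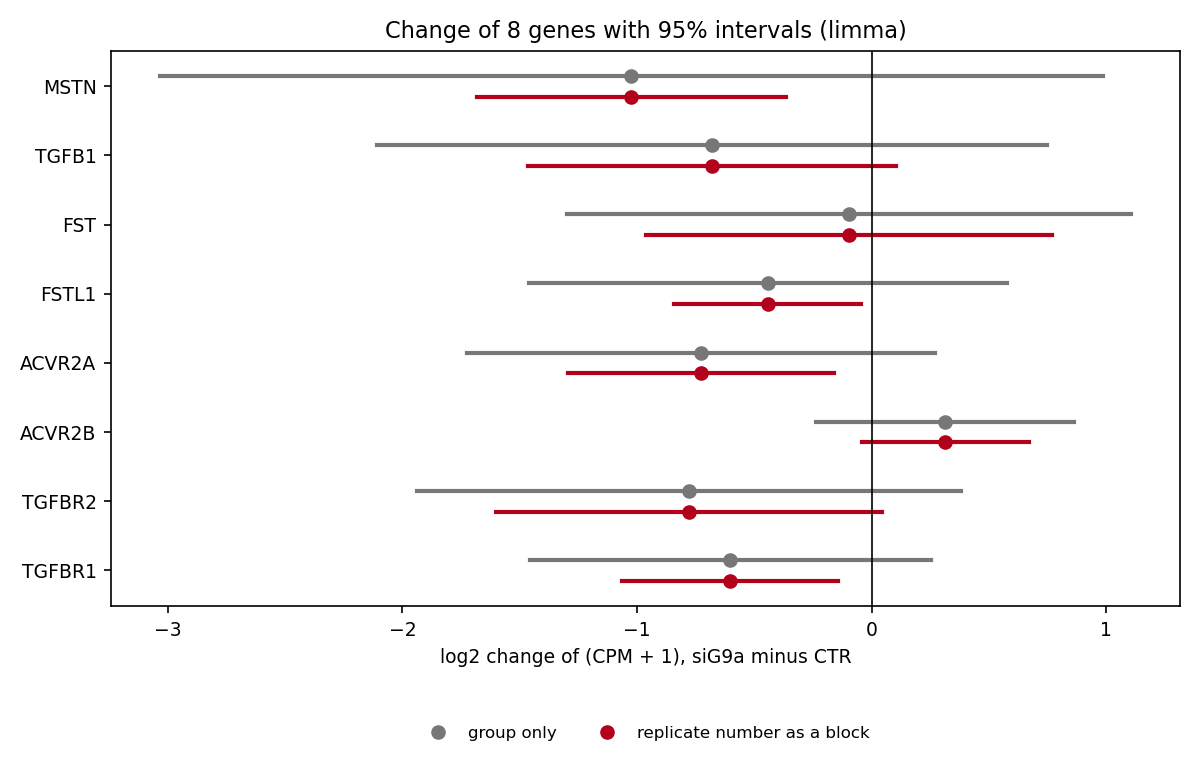
Log2 change of CPM + 1, siG9a minus CTR (horizontal axis), for 8 of the 10 genes with 95% intervals from limma, without (grey) and with (red) the replicate number as a block. TGFB2 and SMAD7, read at 0 to 7 reads per library, are left out. The grey intervals all span 0, and the interval of MSTN with the block ran from −1.68 to −0.37.

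Among the ligands of the 10 genes, MSTN, which encodes myostatin, was the most abundant in both groups. It measured 98.7, 116, 6.76 and 313 CPM in CTR replicates 1 to 4 and 58.8, 18.8, 14.3 and 91.2 CPM in siG9a. The groups overlapped, with CTR replicate 3 below every other library and CTR replicate 4 far above the rest. Within pairs, the siG9a library held 59.6%, 16.2%, 211% and 29.1% of the CTR library with the same number, lower in 3 of 4. In the pair that went the other way the 2 values rested on 11 and 25 reads, with 95% Wilson intervals of 3.78 to 12.1 and 9.67 to 21.1 CPM, which overlap. Such intervals cover counting error only.

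The log2 change of MSTN was −1.02 ± 0.93 (SE) with the group alone (limma, adjusted p = 0.706). Without 1 library at a time it ran from −0.32 without CTR replicate 4 to −2.10 without CTR replicate 3, and was −0.61 without siG9a replicate 3, with 0 calls. With the replicate number as a block it was −1.02 ± 0.32 (SE), and the adjusted p of 0.0377 passed the threshold. Without both libraries of replicate 3 it reached −1.69 ± 0.46 (SE) for the group alone (limma, adjusted p = 0.0608) and −1.69 ± 0.26 (SE) under the block (0.000404), where 7.14% of all genes were called. The call with the block was lost without replicate 1, where the change was −1.12 (limma, adjusted p = 0.0850). It was also lost without replicates 2 and 4, where the changes were smaller, −0.51 and −0.78 (0.425 and 0.253). Without replicates 1, 2 and 4 the fits called 6.3%, 4.43% and 9.23% of all genes. On the recovered reads with the block, MSTN had an adjusted p of 0.0012 by edgeR, which called 11.3% of all genes, and 0.332 by DESeq2, which called 6.42%. The 3′ end of MSTN overlaps C2orf88 on the opposite strand in GENCODE 29. C2orf88 lay between 1.14 and 14.0 CPM and was lower in siG9a in 4 of 4 pairs (log2 change −1.31, limma blocked adjusted p = 0.0261), and its part in the MSTN values was not tested. The muscle markers varied alongside MSTN only in part. Their sum was lower in siG9a in 4 of 4 pairs, where MSTN was lower in 3, and both were lowest in replicate 3 of each group. In CTR replicates 1 and 4 the sum was 1882 and 1845 CPM, where MSTN measured 98.7 and 313 CPM. The part of the muscle markers in the MSTN result was not tested. MYOD1, the factor that specifies muscle, measured 95.3 CPM in CTR replicate 3 against 817 to 864 CPM in the other CTR libraries, and had a log2 change of −0.03 between the groups (limma, blocked adjusted p = 0.935). Of the other 6 muscle markers, DES (−1.77), CDH15 (−1.20), CHRNA1 (−1.15), TFAP2B (−0.78) and FGFR4 (−0.59) were called lower in the blocked fit, and MYOG (−0.65) was not.

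**Figure D3:**
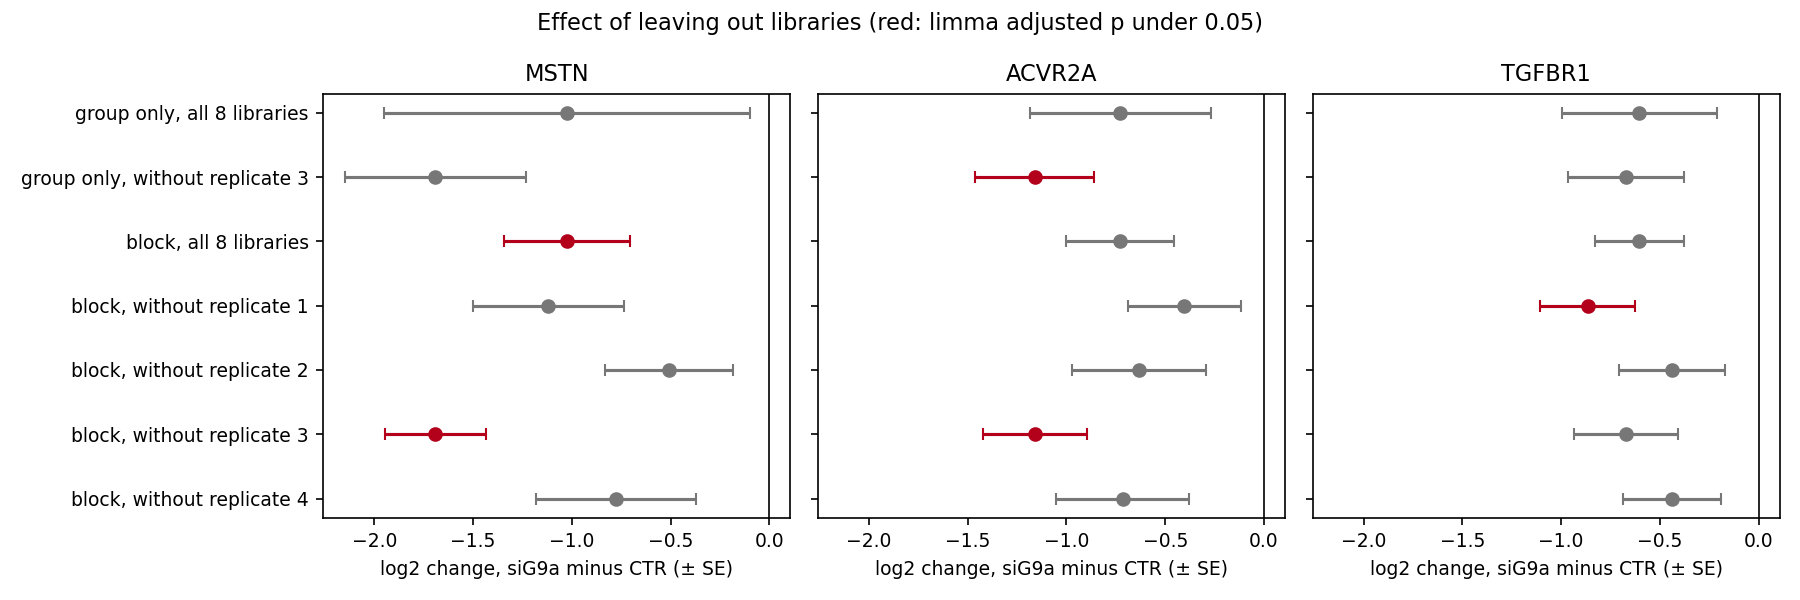
Log2 change, siG9a minus CTR (horizontal axis), of MSTN, ACVR2A and TGFBR1 with bars of 1 SE under 7 fits (rows), which differ in the block and in the replicate number left out of both groups. Red marks a limma adjusted p under 0.05. MSTN moved from −0.51 without replicate 2 to −1.69 without replicate 3, and all points lie below 0.

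TGFB1, the most studied TGF-beta ligand, measured 6.85, 12.8, 2.46 and 16.1 CPM in CTR and 8.77, 10.3, 0.57 and 4.59 CPM in siG9a replicates 1 to 4. The groups overlapped, with replicate 3 lowest in both. The log2 change was −0.68 ± 0.66 (SE, 95% interval −2.11 to 0.75), with a limma adjusted p of 0.727. It was −0.07 without siG9a replicate 3, which held 1 read, −0.37 without CTR replicate 4, and −1.14 without CTR replicate 3. Without both libraries of replicate 3 it was −0.53 ± 0.43 (SE). The 3′ end of TGFB1 overlaps HNRNPUL1, again on the opposite strand. HNRNPUL1 lay between 68.6 and 147 CPM and was lower in siG9a in 4 of 4 pairs, without overlap between the groups (log2 change −0.67, limma blocked adjusted p = 0.00638). Whether the authors' counting used strand is not given in the sources used here, and the part of HNRNPUL1 in the TGFB1 values was not tested.

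TGFB2, a second TGF-beta ligand, rested on 2, 5, 3 and 1 reads in CTR replicates 1 to 4 and 3, 1, 0 and 2 reads in siG9a. Only CTR replicate 2 exceeded the floor of 3 reads, at 3.04 CPM with a 95% Wilson interval of 1.30 to 7.11 CPM. A difference between the groups was not detectable at this depth, and the 0 in siG9a replicate 3 allows a level of up to 1.71 CPM by the limit of 3 reads (2.19 CPM by the Wilson interval).

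Among the extracellular binding proteins, FSTL1, a secreted glycoprotein related to follistatin, was the abundant one. It measured 99.4, 86.9, 39.4 and 75.8 CPM in CTR and 92.9, 64.2, 16.6 and 73.4 CPM in siG9a replicates 1 to 4. It was lower in siG9a in 4 of 4 pairs, as were 15.3% of all genes tested, but by less than 10% in pairs 1 and 4, where siG9a held 93.4% and 96.8% of CTR. The log2 change was −0.44 ± 0.47 (SE, 95% interval −1.46 to 0.57), with a limma adjusted p of 0.755. Without siG9a replicate 3, its lowest library, the change was 0.09, and without both libraries of replicate 3 it was −0.19 ± 0.23 (SE).

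FST, which encodes follistatin, the direct antagonist of myostatin and activins, was read at 8.91, 4.86, 0.61 and 5.71 CPM in CTR and 3.61, 3.03, 2.28 and 6.88 CPM in siG9a replicates 1 to 4. These values rest on 1 to 13 reads, and the groups overlapped throughout. FST was lower in 2 of 4 pairs and higher in 2, with a log2 change of −0.10 ± 0.55 (SE, 95% interval −1.30 to 1.11) and a limma adjusted p of 0.966. The sign of this change depended on single libraries, and without both libraries of replicate 3 it was −0.47 ± 0.46 (SE).

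The 2 activin type II receptors had changes of opposite sign. ACVR2A measured 45.9, 45.0, 10.45 and 51.4 CPM in CTR and 13.4, 21.8, 15.99 and 29.8 CPM in siG9a replicates 1 to 4. The 4 siG9a values lay below all CTR values but that of replicate 3, which was the lowest of the 8. The log2 change was −0.73 ± 0.46 (SE, limma adjusted p = 0.555). Without replicate 3 in either group, ACVR2A was called at −1.16 ± 0.30 (SE, limma adjusted p = 0.0481), as were 2.74% of all genes. Under the block, limma gave an adjusted p of 0.0878 in all 8 libraries and 0.00933 without replicate 3, edgeR 0.0372 and DESeq2 0.145. Without replicates 1, 2 and 4 the blocked changes were −0.40, −0.63 and −0.72, none of them called (limma, adjusted p = 0.466, 0.325 and 0.204). The 3′ end of ACVR2A overlaps ORC4 on the opposite strand, which lay between 8.91 and 22.7 CPM.

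ACVR2B, the receptor with the higher affinity for myostatin, measured 48.0, 65.6, 85.5 and 50.4 CPM in CTR and 56.2, 72.0, 96.5 and 83.7 CPM in siG9a replicates 1 to 4. It was higher in siG9a in 4 of 4 pairs, as were 14.9% of all genes, and highest in replicate 3 of both groups, where most of the other genes described here were lowest. The log2 change of 0.31 ± 0.25 (SE, 95% interval −0.24 to 0.86) did not exceed the spread between replicates (limma adjusted p = 0.670). Without both libraries of replicate 3 the change was 0.36 ± 0.24 (SE, limma adjusted p = 0.490). ACVR2B varied least of the 10 genes, with a coefficient of variation of 27.7% in CTR and 22.2% in siG9a, where MSTN reached 96.4% and 79.4%.

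As a share of the reads of both receptors, ACVR2B made up 51.1%, 59.3%, 89.1% and 49.5% in CTR replicates 1 to 4 and 80.7%, 76.8%, 85.8% and 73.7% in siG9a. The share was higher in siG9a in 3 of 4 pairs, and all CTR libraries but replicate 3 lay below all siG9a libraries. The means were 62.3 ± 18.4% and 79.3 ± 5.21% (SD, n = 4 each), a difference of 17.0 percentage points that did not pass an exact permutation test (two-sided p = 0.143, smallest possible 0.0286). By pairs, an exact sign-flip test gave a two-sided p of 0.25, where 0.125 is the smallest possible. Without replicate 3 the means were 53.3 ± 5.28% and 77.1 ± 3.51% (SD, n = 3 each), with an exact two-sided p of 0.1, the smallest that 3 against 3 allows. This share was chosen after the values of both receptors had been seen. The summed level of both receptors ran from 93.9 to 110.6 CPM in CTR and from 69.6 to 113.6 CPM in siG9a.

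Of the TGF-beta receptors, TGFBR1, the type I receptor that also serves myostatin, was well read and TGFBR2 was low. TGFBR1 measured 49.4, 59.6, 22.1 and 57.6 CPM in CTR and 56.2, 27.2, 16.6 and 26.4 CPM in siG9a replicates 1 to 4. It was lower in pairs 2, 3 and 4 and higher in pair 1, and the log2 change was −0.60 ± 0.39 (SE, 95% interval −1.46 to 0.25, limma adjusted p = 0.570). TGFBR1 was not called in the blocked fit of all 8 libraries by limma, edgeR or DESeq2 (adjusted p = 0.0827, 0.0703 and 0.174). It was called at −0.87 without replicate 1, the pair in which it was higher (limma, blocked adjusted p = 0.0336), and not without replicates 2, 3 and 4, at −0.44, −0.67 and −0.44 (0.406, 0.129 and 0.294). TGFBR2, the TGF-beta type II receptor, measured 7.54, 7.90, 3.07 and 5.71 CPM in CTR and 8.77, 3.03, 0.57 and 2.87 CPM in siG9a, on 1 to 17 reads. It too was lower in pairs 2, 3 and 4, with a log2 change of −0.78 ± 0.53 (SE, 95% interval −1.94 to 0.38) and a limma adjusted p of 0.593. Without both libraries of replicate 3 it was −0.58 ± 0.47 (SE), and without siG9a replicate 3 alone −0.34.

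SMAD7, a feedback inhibitor induced by the pathway, rested on 2, 1, 3 and 7 reads in CTR replicates 1 to 4 and 1, 0, 2 and 2 reads in siG9a. Only CTR replicate 4 exceeded the floor, at 3.63 CPM. All 4 siG9a values were below the CTR value with the same number, but a difference was not detectable at this depth.

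Replicate 3 was the lowest library of CTR for 7 of the 10 genes, of siG9a for 7, and of both groups for 6, where 33.0%, 31.1% and 19.8% of all genes showed the same. The 6 were MSTN, TGFB1, FST, FSTL1, TGFBR2 and TGFBR1. Without replicate 3, MSTN and ACVR2A passed the threshold in the blocked fit, and the other 8 genes did not. For the 3 genes with the highest mean level, the genes of most similar pattern over the 8 libraries were sought among the other genes tested. For MSTN they were TRO, KCNH2 and KANK2, each with a Pearson r of 0.97, and 0.94, 0.96 and 0.94 over the 6 libraries without replicate 3. For ACVR2B they were CDKN2AIPNL, PA2G4 and TERF2IP, with r of 0.99, 0.98 and 0.98. For FSTL1 they were CCDC3, SDK2 and HR, with r of 0.99, 0.98 and 0.98 over all libraries but 0.78, 0.68 and 0.86 without replicate 3. These are the highest correlations among all genes tested, over few libraries that share their group and replicate number.

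Another 108 genes of the wider TGF-beta and BMP pathway were found in the table, of which 79 had a mean of at least 1 CPM. Limma with the group alone called 0 of the 79. Of the 79, 51 had a log2 change below 0, a larger share than the 48.9% of all genes tested. Their median log2 change was −0.19, against 0.01 over all genes. With the block it called 15 of the 79, 4 higher and 11 lower in siG9a, beside 11.4% of all genes tested. Of all genes, 4.86% were called higher and 6.52% lower in that fit, and the counts by role below stand beside these shares. The number of pathway genes called was 9 with the block and without replicate 3, where 7.14% of all genes were called.

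Of the other ligands, 3 of 14 were called with the block, and all 3 were bone morphogenetic proteins. BMP7, at 32.2 ± 3.48 CPM in CTR and 10.1 ± 8.06 CPM in siG9a (SD, n = 4), fell by 1.82 on the log2 scale (SE 0.30, limma adjusted p = 0.000289 blocked and 0.122 unblocked). Its 4 siG9a values lay below its 4 CTR values. BMP4 rose by 1.06 in log2, from 11.5 ± 6.71 to 24.7 ± 11.5 CPM (SD, n = 4; limma adjusted p = 0.0206 blocked and 0.357 unblocked). BMP5 fell from 10.8 to 5.30 CPM (limma adjusted p = 0.0478 blocked and 0.466 unblocked).

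Of the other receptors, 2 of 11 were called with the block, in opposite directions. ACVR1B, a type I receptor for activins and myostatin, measured 39.8, 19.4, 32.0 and 19.2 CPM in CTR and 49.5, 45.4, 44.5 and 50.5 CPM in siG9a. It rose by 0.83 ± 0.22 (SE) in log2, without overlap between the groups (limma adjusted p = 0.0136 blocked and 0.254 unblocked). BMPR2, the type II receptor for bone morphogenetic proteins, fell from 98.2 ± 19.9 to 51.0 ± 9.76 CPM (SD, n = 4; limma adjusted p = 0.000701 blocked and 0.133 unblocked), also without overlap.

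Among the extracellular inhibitors and carriers, 4 of 16 were called with the block, all lower in siG9a, where 6.52% of all genes were called lower. The median log2 change of the 16 was −0.44. LTBP1 and LTBP3 encode proteins that hold latent TGF-beta in the matrix, and fell from 60.4 to 27.1 CPM and from 45.6 to 29.3 CPM. BMP1 and TLL2 were in the same list but are metalloproteinases of the tolloid family, which frees myostatin from its propeptide. BMP1 and TLL2 fell from 57.8 to 36.9 CPM and from 3.79 to 0.68 CPM. In that order, limma gave adjusted p-values of 0.00319, 0.0392, 0.0362 and 0.0196 blocked, and of 0.273, 0.460, 0.368 and 0.178 unblocked. Without replicate 3, only LTBP1 of these 4 kept its call with the block. The siG9a mean of TLL2 lay under the floor of 3 reads, so the size of its fall is uncertain at this depth.

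Of the SMADs and their regulators, 2 of 18 were called with the block. SMAD1, which carries the signal of bone morphogenetic proteins, fell from 71.7 ± 20.7 to 40.5 ± 3.72 CPM and PPM1A, a SMAD phosphatase, from 58.1 ± 9.76 to 36.5 ± 7.23 CPM (SD, n = 4 each; limma adjusted p = 0.0104 and 0.0229 blocked, 0.237 and 0.277 unblocked). Of 20 target genes, 2 were called higher and 2 lower with the block. ID3 rose from 133 to 266 CPM and ID1 from 53.3 to 98.1 CPM, both inhibitors of helix-loop-helix factors and known targets of bone morphogenetic proteins, with log2 changes of 0.87 and 0.86. Both were higher in 4 of 4 pairs (limma adjusted p = 0.000886 and 0.00185 blocked, 0.530 and 0.663 unblocked). TIMP1 fell from 45.4 to 25.6 CPM and COL1A1 from 51.9 to 33.3 CPM (limma adjusted p = 0.0140 and 0.0410 blocked, 0.237 and 0.414 unblocked). Of the genes named by role, BMP5, PPM1A and COL1A1 also lost their call in the blocked fit without replicate 3.

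**Figure D4:**
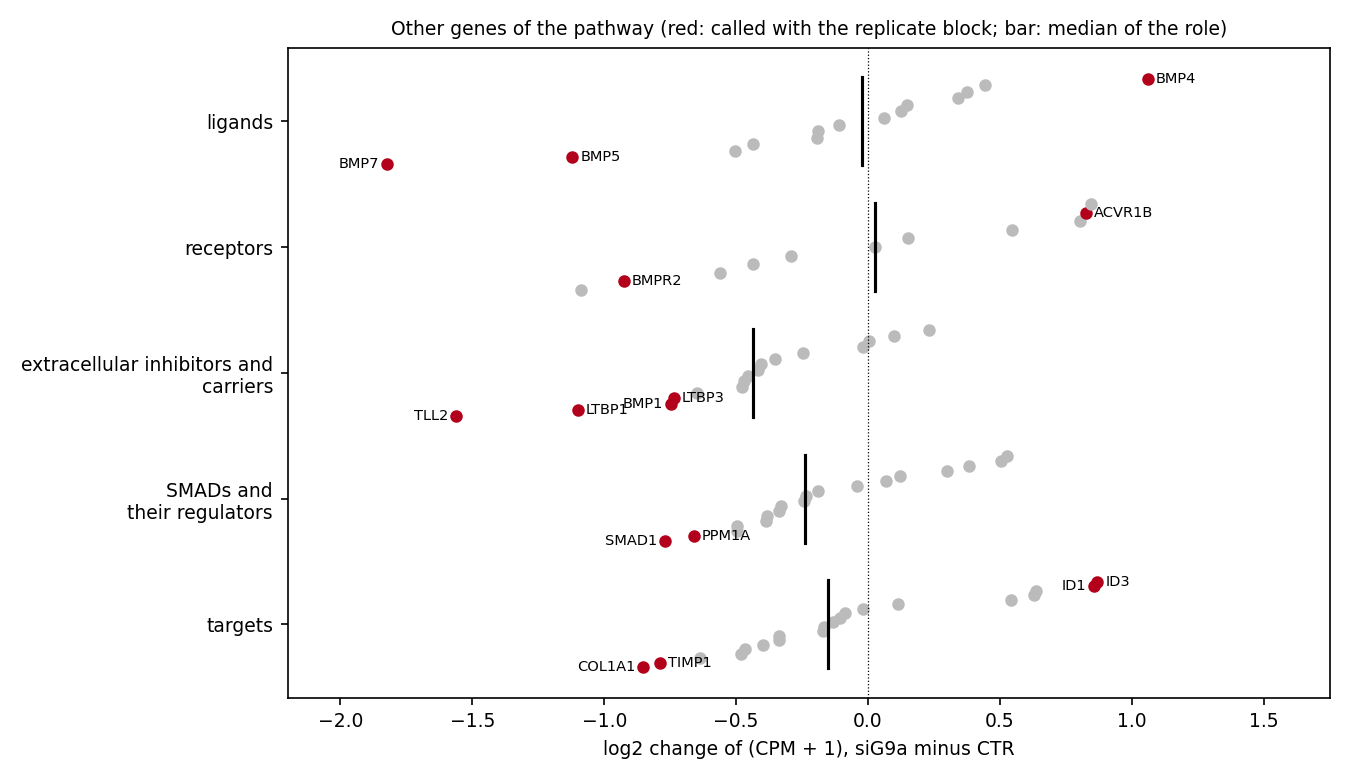
Log2 change of CPM + 1, siG9a minus CTR (horizontal axis), of the 79 tested genes of the wider pathway by role (rows), 1 point per gene. Red points with names are the 15 genes called by limma with the replicate number as a block, and black bars are the median of each role. All 4 called genes in the row of extracellular inhibitors and carriers lie below 0, while ligands, receptors and targets have called genes on both sides.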

How the data were processed

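QuantSeq 3′ mRNA libraries of total RNA were sequenced in single-end mode, per the labels' protocols. The submitters' processing notes name FastQC 0.11.8, Trim Galore, STAR 2.5.0a, HTSeq 0.8.0, edgeR 3.28 and the builds GRCh38 and hg19, with no roles. The strand setting and annotation are not given in the sources used here. The deposited values are CPM. All non-zero values (100%) were whole multiples of 1 read within 0.01 CPM, so reads were recovered.

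The main test was limma 3.58.1 (R 4.3.3; lmFit, eBayes with trend, two-sided) on log2(CPM + 1), for the 15092 genes whose mean over the 8 libraries reached 1 CPM, with Benjamini-Hochberg adjustment over all of them and a threshold of 0.05. The pseudocount understates changes of low genes. Alternatives used the replicate number of the titles as a block, other pseudocounts, filters, scalings and weights, left-out libraries, and edgeR 4.0.16 and DESeq2 1.42.0 on the reads. The labels do not say that same-numbered libraries are pairs. Across genes, deviations from group means correlated between same-numbered libraries at 0.50 and 0.67 for numbers 1 and 3. For numbers 2 and 4 the values were only 0.104 and 0.13, and CTR replicate 2 correlated more with siG9a replicate 4 (0.144). The numbers were used as pairs throughout, although these values do not show a pairing for numbers 2 and 4. On simulated paired reads for 14806 genes, with 200 changed by 1.5 in log2, limma recovered 24.5% without and 96% with the block. In the simulation, same-numbered libraries of both groups shared the same mean for each unchanged gene. Full pairing was thus built in, and the result cannot show that the block suits these data.

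The 10 genes, the marker lists and the pathway lists were chosen with earlier results of these data known, and 1 listed pathway gene is not reported here. Named pathway genes were at most the 4 per role with the smallest p with the block among those called.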

Additional observations from a re-analysis of the deposited data

Results flagged for a closer look

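Each group of 4 values of each of the 10 genes was examined for a library far from the other 3, 20 groups in all, of which chance flags about 1. The case found was ACVR2A in CTR replicate 3, at 10.45 CPM, where the other CTR libraries lay between 45.0 and 51.4 CPM. The gap to the nearest library was 0.843 of the range, above Dixon's 95% critical value for 4 samples. The siG9a library of replicate 3, at 15.99 CPM, lay among the other siG9a libraries.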

How the results depend on the processing

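With the group as the only term, limma called 0 genes, 0 of the 10 described here and 0 of 79 pathway genes. With the replicate block these counts were 1717, 1 and 15, and without replicate 1, 2, 3 or 4 they were 951, 668, 1078 and 1393 genes, 0 to 2 of the 10, and 9, 4, 9 and 11 pathway genes. Leaving out single libraries gave 0 to 300 genes, 0 of the 10 and 0 to 1 pathway genes, and leaving out replicate 3 of both groups 413, 1 and 3. No filter on low values gave 18 genes, and array weights 436 genes and 5 pathway genes. On whole reads DESeq2 called 291 genes and 2 pathway genes without the replicate block and 969 and 7 with it, and edgeR with the block called 1710, 2 of the 10 and 13. With the block and median-ratio scaling the counts were 1693, 1 and 15, and with TMM scaling 1713, 1 and 15. The last 2 fits and those without both replicate 3 libraries or on the ACVR2B share were chosen after the data were seen. The block changed the call of MSTN and of no other of the 10 genes, in all 8 libraries by limma.

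The log2 change of FST turned to 0.016 with a pseudocount of 0.1, and ran from −0.64 to 0.23 without single libraries and, with the block, from −0.47 to 0.24 without single replicate numbers (0.051 without number 2). That of FSTL1 ran from −0.72 to 0.089 without single libraries. Every other gene of the 10 kept its direction under the alternatives run that gave it a value. FST, TGFB2, TGFBR2 and SMAD7 had no value with a filter at 5 CPM, and DESeq2 gave some of these low genes no adjusted p. Depth limits TGFB2, SMAD7 and FST, at 0 to 13 reads per library.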
